A study of Homo sapiens with 6 samples.

Results

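The SERPINB cluster on the long arm of chromosome 18 is a run of neighbouring genes that encode clade B serpins. SERPINB2 had the largest rise of all tested probes when XBP-1s was knocked down in CAL-27 cells, and its 9 neighbours of the same family, SERPINB3, SERPINB4, SERPINB5, SERPINB7, SERPINB8, SERPINB10, SERPINB11, SERPINB12 and SERPINB13, were measured on the same arrays. The 10 genes, of 19740 with a RefSeq symbol on the array, were covered by 11 probes. SERPINB2 was chosen by its rise on these arrays, so its values are a description and no test of it is given. The neighbours were chosen by family and place in the cluster, and the question was whether they changed with it.

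CAL-27 is an established human tongue squamous carcinoma line. The 6 one-colour arrays compared cells with a short hairpin RNA against XBP-1s (shXBP-1s, n = 3) with cells carrying a control hairpin (shCtrl, n = 3). The methods describe stable transduction, while the labels call it transfection, and neither says whether the 3 samples of a group came from separate cultures, so p-values measure the spread between these samples, which may be technical. XBP-1s is the transcription factor made from the spliced XBP1 mRNA in the unfolded protein response. Only 1 line and 1 hairpin per group are named.

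Serpins are protease inhibitors that trap their target through a cleaved reactive loop, and the clade B members mostly stay inside the cell because they lack a classical secretion signal. SERPINB2 is plasminogen activator inhibitor 2, which blocks urokinase and tissue plasminogen activator and is known from monocytes and keratinocytes. Several of its neighbours are best known from stratified epithelium, where SERPINB3 and SERPINB4 were found as squamous cell carcinoma antigens and SERPINB5 as maspin.

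In RefSeq order the protein-coding genes run PHLPP1, BCL2, KDSR, VPS4B, SERPINB5, SERPINB12, SERPINB13, SERPINB4, SERPINB3, SERPINB11, SERPINB7, SERPINB2, SERPINB10, HMSD and SERPINB8. The stretches before the transcription starts of the genes that were higher after knockdown are shown first. Each of these genes holds the same short motif before at least 1 listed start, but SERPINB13, which fell, and SERPINB12, which was not above background, hold it too. The stretches shown are RefSeq sequence of build GRCh38.p14, read on the plus strand, with each TGANTCA match, the letters bound by AP-1 type factors, in capitals. SERPINB2 spans chr18:63887455-63887704 and SERPINB8 chr18:63969831-63970080, each up to the last base before the start. SERPINB5 is chr18:63476787-63476843, and the SERPINB7 stretches, before 2 of its 3 listed starts, are chr18:63775354-63775410 and chr18:63777711-63777767.
SERPINB2: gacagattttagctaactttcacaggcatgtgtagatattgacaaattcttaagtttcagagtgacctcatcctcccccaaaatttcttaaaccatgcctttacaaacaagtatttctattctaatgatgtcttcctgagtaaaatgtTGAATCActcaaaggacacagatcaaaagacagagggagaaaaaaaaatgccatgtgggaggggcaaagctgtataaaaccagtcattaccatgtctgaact
SERPINB8: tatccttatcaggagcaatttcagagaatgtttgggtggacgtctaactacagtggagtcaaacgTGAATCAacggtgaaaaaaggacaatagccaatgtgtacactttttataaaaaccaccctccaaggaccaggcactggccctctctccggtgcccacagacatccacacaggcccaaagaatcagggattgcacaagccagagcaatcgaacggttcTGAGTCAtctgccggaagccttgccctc
SERPINB5: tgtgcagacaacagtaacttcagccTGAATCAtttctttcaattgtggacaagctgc
SERPINB7, middle start: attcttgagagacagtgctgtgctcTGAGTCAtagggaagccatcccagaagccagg
SERPINB7, last start: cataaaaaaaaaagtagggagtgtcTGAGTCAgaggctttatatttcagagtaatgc

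RefSeq listed 11 windows for 8 of the 10 genes, and SERPINB10 and SERPINB11 were not matched. Within the 250 bases before the start, on both strands, TGANTCA was found in 7 of these 11 windows and in 6.57% of the 35116 windows of all genes. The match lay 102 to 96 bases before the start of SERPINB2. SERPINB8 held matches 185 to 179 and 28 to 22 bases before its start, and SERPINB5 held 1 at 146 to 140 bases. Each of the 2 SERPINB7 windows with the motif held another match further upstream. It was also in genes that did not rise: SERPINB13, which fell, held it 87 to 81 bases before its start, and SERPINB12, which was not above background, held it in 1 of its 2 windows. TGACGTG, the core of the element that XBP-1s binds, was in 0 of the 11 windows and in 1.68% of all, and CACGTG, the E-box, in 0 of the 11 and in 6.34% of all. A match is a description of these letters and no evidence of binding.

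SERPINB3 and SERPINB4 have almost the same upstream sequence, shown because their array values also ran close together. Both lie on the minus strand, SERPINB3 at chr18:63661894-63662143 and SERPINB4 at chr18:63644257-63644506 of GRCh38.p14. They differ at 3 of 250 bases, in capitals, and hold no TGANTCA.
SERPINB3: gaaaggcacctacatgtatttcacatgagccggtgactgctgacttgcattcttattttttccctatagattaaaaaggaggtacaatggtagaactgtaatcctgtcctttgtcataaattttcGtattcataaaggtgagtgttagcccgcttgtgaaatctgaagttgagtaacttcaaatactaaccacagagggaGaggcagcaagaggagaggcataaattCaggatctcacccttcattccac
SERPINB4: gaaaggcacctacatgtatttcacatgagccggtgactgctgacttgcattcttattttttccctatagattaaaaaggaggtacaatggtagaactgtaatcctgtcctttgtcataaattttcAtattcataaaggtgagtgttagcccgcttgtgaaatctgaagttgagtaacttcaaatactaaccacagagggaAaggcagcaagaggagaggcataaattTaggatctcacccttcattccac

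XBP1 itself was measured first, as a check of the labels. Its processed signal was 2536, 2743 and 2766 on the shCtrl arrays and 695, 617 and 551 on the shXBP-1s arrays, and the groups did not overlap. On the scale used below, log2 signal minus the 75th percentile of the array, it fell by 2.39 (limma SE 0.04, adjusted p = 2.81e-07). The probe does not tell the spliced from the unspliced mRNA. A probe was tested if either group had it well above background on each of its 3 arrays, and called if its Benjamini-Hochberg adjusted p was below 0.05 and its change at least 2-fold. Of 27624 tested probes, 1354 were called (4.90%), 632 higher (2.29%) and 722 lower (2.61%). With normexp background correction the split was 159 higher and 314 lower. By brightest tested probe, 871 of 16821 genes were called (5.18%), and the median difference over all tested genes was -0.04. Between 82.1% and 84.8% of spots were well above background, none was saturated, and the 75th percentile was 687 to 761 on the shCtrl and 792 to 983 on the shXBP-1s arrays. All 8 squamous epithelial markers were well above background on all 6 arrays. The shCtrl replicates 2 and 3 shared a scan time, and shCtrl replicate 1 shared another with the 3 shXBP-1s samples. Arrays with the same scan time are called a slide below, so the slide was inferred and not read from a label. Within-slide values rest on 1 control.

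SERPINB2 (NM_002575) gave processed signals of 101, 67.6 and 90.7 in shCtrl replicates 1, 2 and 3 and of 3904, 3471 and 3089 in shXBP-1s replicates 1, 2 and 3. All 6 were well above background, and the lowest knockdown array was far above the highest control. The shCtrl mean was -3.11 ± 0.37 and the shXBP-1s mean 1.97 ± 0.02 on the normalised log2 scale (SD, n = 3), so most of the spread was among the controls. The difference was 5.08 (SE 0.16, 95% interval 4.71 to 5.44), which is 33.7-fold and ranked 1 of the 27624 tested probes. The SE and interval describe the spread between these arrays and do not allow for the choice of the gene by its rise. Against shCtrl replicate 1 alone, on the same slide, the difference was 4.74. This is a bulk measurement, in which more cells expressing a gene and more RNA per cell cannot be told apart.

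Of the 9 neighbours, 7 were tested, and they did not move as a block. SERPINB7, SERPINB8 and SERPINB5 rose, SERPINB13 fell, and SERPINB3, SERPINB4 and SERPINB11 differed by -0.19, -0.18 and -0.42 without passing the test. SERPINB7 was the 1 neighbour called, which is 14.3% of the 7 tested against 4.90% of all tested probes. An adjusted p below 0.05 at any fold was reached by 4 of the 7, or 57.1%, while 41.7% of all tested probes reached it, so that share was near the background. After scaling, the groups did not overlap for any of the 7 tested neighbours, 3 higher and 4 lower, and they did not overlap for 52.4% of all tested probes. The median difference of the 7 was -0.18.

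**Figure D1:**
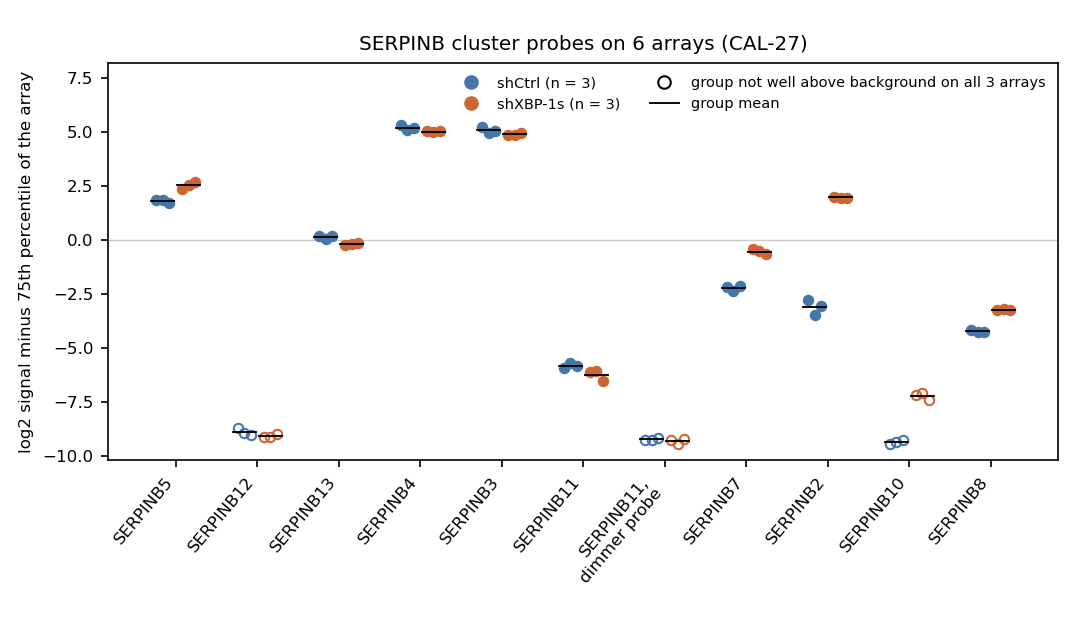
Normalised log2 signal (vertical axis, log2 signal minus the 75th percentile of the array) of the 11 probes on the 6 arrays, in gene order, with shCtrl in blue, shXBP-1s in orange, lines for the group means and open points where a group was not well above background on all 3 arrays. SERPINB2 moved from a mean of -3.11 to 1.97, SERPINB7 from -2.23 to -0.54, and the points of SERPINB12 and of the dimmer SERPINB11 probe lie at the floor of the array in both groups.

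SERPINB7, also called megsin, is an inhibitor whose loss causes a palmoplantar keratosis, and its gene is the next protein-coding one before SERPINB2. Its probe (NM_001040147) gave signals of 150, 149 and 172 in shCtrl replicates 1, 2 and 3 and of 726, 626 and 496 in shXBP-1s replicates 1, 2 and 3. The lowest knockdown array was over the highest control array by 1.46 on the normalised log2 scale. SERPINB7 rose by 1.69 (SE 0.08, 95% interval 1.50 to 1.88, limma adjusted p = 4.33e-06), or 3.22-fold, and ranked 163 of the 27624 tested probes by rise. Within the slide shared with shCtrl replicate 1 the difference was 1.66, and over the alternatives it ran from 1.07 to 1.75.

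SERPINB8, an inhibitor of furin-type proteases, lies at the far end of the cluster, beyond HMSD. Its probe (NM_001031848) was dim, with signals of 37.9, 39.9 and 39.7 in shCtrl and of 103, 96.7 and 82.4 in shXBP-1s replicates 1, 2 and 3. The groups were apart by 0.92 on the normalised log2 scale. SERPINB8 rose by 0.99 (SE 0.07, 95% interval 0.82 to 1.16, limma adjusted p = 2.73e-05), or 1.98-fold, just under the fold needed for a call. Without shCtrl replicate 1 the difference was 1.01 and the gene was called, whereas with normexp background correction it turned to -0.15 (adjusted p = 0.802). Normexp moved the median of all tested probes to -0.41, and SERPINB8 lay 0.26 above that median. The p-values of normexp alone ran to extremes, such as a limma adjusted p of 1.08e-125 for XBP1 with 3 arrays per group. They are therefore weak evidence in either direction, here and below. With quantile normalization added after normexp, the SERPINB8 difference was 0.43 (adjusted p = 9.42e-05).

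SERPINB5, or maspin, is a clade member without protease inhibitor activity that is made by normal epithelium, and it is the first gene of the cluster. Its probe (NM_002639) gave signals of 2499, 2781 and 2456 in shCtrl and of 5020, 5297 and 5122 in shXBP-1s replicates 1, 2 and 3. No knockdown array came near the controls. SERPINB5 rose by 0.73 (SE 0.09, 95% interval 0.52 to 0.94, limma adjusted p = 0.000393), or 1.65-fold, and was not called. SERPINB5 and SERPINB8 sit at opposite ends of the cluster, while SERPINB7 and SERPINB2 are adjacent.

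**Figure D2:**
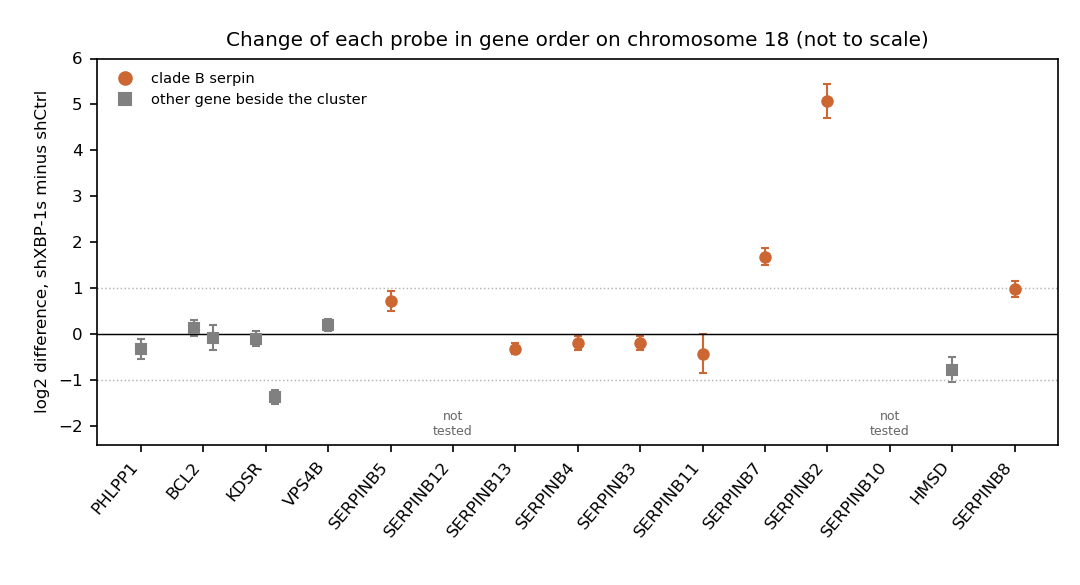
Difference in normalised log2 signal between shXBP-1s and shCtrl (vertical axis, n = 3 per group) for each tested probe, with genes in their order on chromosome 18 and not to scale, 95% intervals as bars and dotted lines at 2-fold. SERPINB2 (5.08), SERPINB7 (1.69), SERPINB8 (0.99) and SERPINB5 (0.73) lie above 0. The run from SERPINB13 to SERPINB11 between them lies below 0, at -0.18 to -0.42. With normexp background correction alone, SERPINB8 was at -0.15, and SERPINB13, SERPINB4 and SERPINB3 lay above the median of all probes. With quantile normalization added, SERPINB8 was at 0.43, and SERPINB13, SERPINB4 and SERPINB3 lay below the median there, at -0.29, -0.06 and -0.17.

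Of the 4 genes between SERPINB12 and SERPINB7, SERPINB13 alone passed the test. SERPINB13, also called hurpin or headpin, inhibits cathepsins L and K. Its probe (NM_012397) gave signals of 774, 787 and 842 in shCtrl and of 836, 785 and 714 in shXBP-1s replicates 1, 2 and 3. These raw signals overlapped, and the groups came apart only after scaling to the 75th percentile, with means of 0.13 ± 0.07 in shCtrl and -0.19 ± 0.04 in shXBP-1s (SD, n = 3). SERPINB13 fell by 0.32 (SE 0.05, 95% interval -0.44 to -0.19, limma adjusted p = 0.00185). With normexp background correction alone the difference was -0.30, which was 0.12 above the median of all tested probes there. In that setting its direction against the rest of the array turned. With quantile normalization added after normexp the difference was -0.29 (adjusted p = 0.00611), below the median of -0.003.

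SERPINB3 and SERPINB4 are near-identical paralogs of different target range, with SERPINB3 acting on papain-like cysteine cathepsins and SERPINB4 on chymotrypsin-like serine proteases. The SERPINB3 probe (NM_006919) gave signals of 25601, 23915 and 25085 in shCtrl and of 28821, 26052 and 24350 in shXBP-1s replicates 1, 2 and 3. The SERPINB4 probe (NM_002974) gave 27407, 26052 and 27382 in shCtrl and 32192, 28367 and 25822 in shXBP-1s. On both probes shXBP-1s replicate 1 gave the highest signal, and how far each probe also binds the mRNA of the other gene was not tested.

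After scaling, SERPINB3 differed by -0.19 (SE 0.07, 95% interval -0.35 to -0.03, limma adjusted p = 0.0631). SERPINB4 differed by -0.18 (SE 0.06, 95% interval -0.33 to -0.03, limma adjusted p = 0.0536). Neither passed. With slide as a block the differences were -0.33 (adjusted p = 0.0147) and -0.30 (adjusted p = 0.0178). Without shCtrl replicate 2 they were -0.24 (adjusted p = 0.0365) and -0.23 (adjusted p = 0.0318), but without shCtrl replicate 1 they were -0.12 (adjusted p = 0.139) and -0.12 (adjusted p = 0.122). Quantile normalization gave -0.11 for both (adjusted p = 0.174 and 0.221). Normexp alone gave -0.13 and -0.02 (adjusted p = 0.602 and 0.943), which lay 0.29 and 0.39 above the median of all tested probes there. In that setting the direction of both against the array turned. With quantile normalization added after normexp the differences were -0.17 and -0.06 (adjusted p = 0.155 and 0.523), below the median of -0.003. Over all alternatives the p ran from 0.0147 to 0.602 for SERPINB3 and from 0.0178 to 0.943 for SERPINB4.

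SERPINB11, a clade member of uncertain activity, was covered by a pair of probes for the same transcript (NM_080475). The brighter gave 11.1, 14.8 and 13.2 in shCtrl and 14, 13.3 and 8.56 in shXBP-1s replicates 1, 2 and 3, with shXBP-1s replicate 3 as the lowest. It differed by -0.42 (SE 0.18, 95% interval -0.84 to 0.0008, limma adjusted p = 0.101). Without shXBP-1s replicate 3 the difference was -0.28, with slide as a block -0.29, with normexp -0.92 and with normexp and quantile normalization -0.06, and none of these passed. The dimmer probe was not well above background on any array.

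SERPINB10, or bomapin, is known from myeloid cells and is the next gene after SERPINB2. Its probe (NM_005024) gave signals of 0.988, 1.14 and 1.22 in shCtrl and of 6.81, 6.50 and 4.68 in shXBP-1s replicates 1, 2 and 3. All 3 knockdown arrays were higher, but only shXBP-1s replicate 2 was well above background, so the gene was not tested and no fold is given. The lowest signals that counted as well above background ran from 4.86 to 7.35 over the 6 arrays. When the filter on dim probes was dropped, SERPINB10 was called higher beside SERPINB7.

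SERPINB12, an inhibitor of trypsin-like proteases, was not well above background on any array (NM_080474, mean of 10 spots). Its signals lay between 1.44 and 1.85 in shCtrl and between 1.61 and 1.79 in shXBP-1s.

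**Figure D3:**
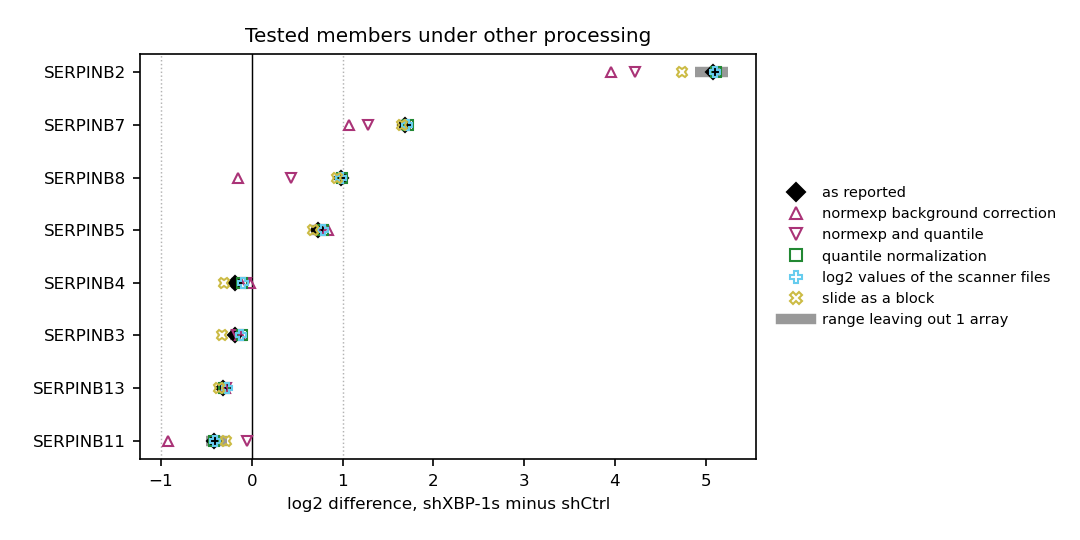
Difference in log2 signal between shXBP-1s and shCtrl (horizontal axis) of the 8 tested members under other background correction and scaling, with slide as a block, and over the range from leaving out 1 array (grey bars). SERPINB7 stayed past 2-fold in each, SERPINB2 ran from 3.96 to 5.25, and SERPINB8 spread from -0.15 with normexp to 1.01 without shCtrl replicate 1.

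The genes that flank and interrupt the cluster were read as non-serpin neighbours. HMSD, which lies between SERPINB10 and SERPINB8 and encodes a serpin-like minor histocompatibility transcript, fell by 0.77 (SE 0.12, limma adjusted p = 0.00127). VPS4B, an ATPase of the ESCRT machinery next to SERPINB5, rose by 0.19 (adjusted p = 0.0274). PHLPP1, a phosphatase, fell by 0.31 (adjusted p = 0.0297). The brighter probe of BCL2, the apoptosis inhibitor, differed by 0.14 (adjusted p = 0.18). KDSR, an enzyme of sphingolipid synthesis, had a brighter probe that differed by -0.09 (adjusted p = 0.334) and a dimmer probe of the same transcript that fell by 1.37 (adjusted p = 4.85e-06), so its probes disagree. By brightest probe, 0 of these 5 genes were called, against 5.18% of all tested genes. At an adjusted p below 0.05, 1 was higher and 2 lower (41.7% of all tested probes). HMSD and PHLPP1 missed that test with normexp alone (adjusted p = 0.278 and 0.441). Both passed it with quantile normalization added (adjusted p = 0.0031 and 0.0455).

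Clade B has a further 3 members outside this cluster, on chromosome 6, and none was called, against 5.18% of all tested genes. SERPINB9, the inhibitor of granzyme B, fell by 0.57 (SE 0.04, limma adjusted p = 3.18e-05). SERPINB1, an inhibitor of neutrophil proteases, rose by 0.30 (adjusted p = 0.00882). SERPINB6 differed by 0.12 by its brighter probe (adjusted p = 0.0801) and by 0.32 by the other (adjusted p = 0.00193).

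Of 20 other serpins read here, 14 were tested, and 1 was called higher and 1 lower, against 5.18% of all tested genes. The called ones were SERPINE2, or protease nexin 1, which rose by 1.47 (SE 0.06, limma adjusted p = 2.36e-06), and SERPINA5, the protein C inhibitor, which fell by 1.07 (SE 0.08, adjusted p = 3.69e-05). Over the 14 the median difference was 0.11. At an adjusted p below 0.05 and any fold, 5 of them were higher and 3 lower, against 41.7% of all tested probes in either direction.

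Genes of plasminogen activation, the system that SERPINB2 inhibits, were read from a list of 11 that also holds the serpins SERPINE2 and SERPINF2. Of 9 tested, 2 were called, both higher, against 5.18% of all tested genes called in either direction. These were SERPINE2, an inhibitor already counted among the other serpins, and S100A10, a plasminogen receptor subunit. S100A10 rose by 1.03 (SE 0.07, limma adjusted p = 1.46e-05). At an adjusted p below 0.05, 4 of the 9 rose and 2 fell, against 41.7% of all tested probes in either direction. The median of 0.52 was the value of HRG, histidine-rich glycoprotein, which did not pass (adjusted p = 0.267) and was at -0.70 with normexp. PLAU, urokinase itself, rose by 0.96 with its brighter probe (NM_002658, SE 0.07, adjusted p = 2.93e-05) and by 1.74 with the dimmer one (NM_001145031, SE 0.08, adjusted p = 4.22e-06). PLAT, tissue plasminogen activator, fell by 0.63 (SE 0.07, adjusted p = 0.000231). It missed the test with normexp alone (adjusted p = 0.185) but passed with quantile normalization added (adjusted p = 0.000269). PLAT, and the urokinase receptor PLAUR with a rise of 0.87 (adjusted p = 0.000154), were named after their values were seen.

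**Figure D4:**
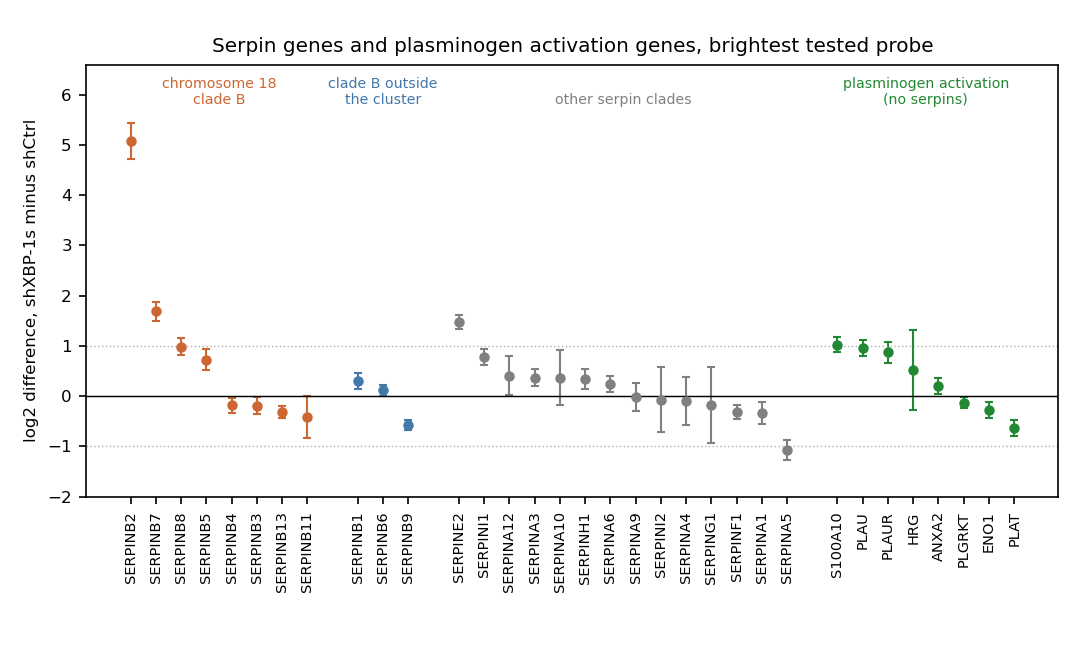
Difference in normalised log2 signal between shXBP-1s and shCtrl (vertical axis, brightest tested probe, 95% intervals, n = 3 per group) for the chromosome 18 clade B serpins, the other clade B serpins, the remaining serpin clades and the plasminogen activation genes that are not serpins. SERPINB2 at 5.08 lies above every other gene shown, with SERPINB7 (1.69) and SERPINE2 (1.47) next among the serpins shown.

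Of 14 proteases listed as possible targets of the members, 11 were tested and 0 were called by brightest probe, against 5.18% of all tested genes. At an adjusted p below 0.05, 4 were higher and 2 lower, against 41.7% of all tested probes, and the median was -0.03. PLAU, CTSV, CTSL and ST14 made up the 4 that rose and PLAT and CTSS the 2 that fell, named after their values were seen. CTSV rose by 0.84 (SE 0.05, limma adjusted p = 1.43e-05) and CTSL by 0.47 (SE 0.05, adjusted p = 0.000108), both cysteine cathepsins. CTSS fell by 0.32 (adjusted p = 0.00585, or 0.318 with normexp). FURIN, the protease that SERPINB8 inhibits, differed by -0.04 (95% interval -0.35 to 0.28, adjusted p = 0.86). Cystatins, the cathepsin inhibitors outside the serpin family, were read from 4 genes, beside 5.18% of all tested genes called. CST6 fell by 1.51 (SE 0.04, adjusted p = 1.09e-06) and was called, CSTB fell by 0.36 (adjusted p = 0.00405), CST3 rose by 0.40 (adjusted p = 0.000273), and CSTA differed by -0.17 (adjusted p = 0.087).

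Keratinocyte genes that are often measured beside SERPINB3, SERPINB4 and SERPINB13 were read from a list of 18, all tested. Of these, 3 were called and all 3 were higher, against 5.18% of all tested genes called in either direction. KRT6A, a keratin of activated epidermis, rose by 4.28 (SE 0.09, limma adjusted p = 4.28e-07). PI3, or elafin, an elastase inhibitor, rose by 1.37 (SE 0.08, adjusted p = 9.64e-06), and TGM1, the cornified envelope transglutaminase, by 1.21 (SE 0.09, adjusted p = 2.6e-05). PI3 and TGM1 missed the test with normexp alone (adjusted p = 0.451 each, a value that many genes shared in that setting). Both passed it with quantile normalization added (adjusted p = 1.02e-05 and 9.41e-05). At an adjusted p below 0.05, 9 of the 18 were higher and 1 lower, and the median was 0.25. With normexp alone IVL, SBSN and KRT16 turned to -0.81, -0.72 and -0.16, and S100A8 missed the test (adjusted p = 0.407). With quantile normalization added, IVL, SBSN, KRT16 and S100A8 were at 0.10, 0.13, 0.39 and 0.39, each with an adjusted p below 0.05. They were named after their values were seen. Of the 27624 tested probes, 5093 were higher and 6423 lower at that threshold, or 41.7% in either direction. Whether the list differed from the array was not tested. Of the 8 squamous epithelial markers, 3 were called, all higher, against 5.18% of all tested genes called in either direction. These were KRT5 by 1.43 (adjusted p = 1.09e-06), KRT14 by 1.58 (adjusted p = 3.32e-06) and DSG3 by 1.17 (adjusted p = 1.32e-05). At an adjusted p below 0.05 and any fold, 6 of the 8 were higher and 0 lower.

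Markers of other cell types were read because SERPINB2 and SERPINB10 are also known from myeloid cells. Of 6 leukocyte markers, CSF1R, the macrophage colony-stimulating factor receptor, was the 1 called, against 5.18% of all tested genes. It was higher by 1.04 (limma adjusted p = 1.74e-05). CD14 fell by 0.84 (adjusted p = 0.0011), and the brightest probe of PTPRC, the pan-leukocyte marker, differed by 0.05 (adjusted p = 0.722). The summed signal of the 6 markers, not scaled between arrays, ranged from 3647 to 5417 in shCtrl and from 3697 to 4612 in shXBP-1s, so the ranges overlapped. CD14 alone gave 2690 to 4356 in shCtrl and 1999 to 2772 in shXBP-1s, so this sum mostly reads that gene. The summed signal of 4 fibroblast markers was 637 to 776 in shCtrl and 405 to 539 in shXBP-1s. PDGFRB alone gave 472 to 598 and 222 to 319, so this sum mostly reads that gene. The sum of 3 endothelial markers was 168 to 194 in shCtrl and 208 to 272 in shXBP-1s, of which CDH5 gave 106 to 138 and 149 to 191. For scale, the 75th percentile of single spots was 687 to 761 on the shCtrl and 792 to 983 on the shXBP-1s arrays. Among the fibroblast markers PDGFRB fell by 1.28 (adjusted p = 9.93e-06), COL1A1 fell by 0.63 (adjusted p = 0.00239) and COL1A2 differed by -0.07 (adjusted p = 0.551). DCN rose by 1.43 (adjusted p = 3.84e-05), but was at -0.32 with normexp alone and at 0.43 with quantile normalization added (adjusted p = 0.000212). The endothelial markers PECAM1, VWF and CDH5 differed by 0.17, 0.13 and 0.26 (adjusted p = 0.502, 0.388 and 0.155). Every gene of these 3 lists had a probe well above background on all 6 arrays, and their part in the SERPINB2 difference was not tested.

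The genes whose profile was most like that of SERPINB2 were sought among the 951 named probes above background on every array with a change of at least 2-fold, by Pearson's r over the 6 arrays. Among the closest were ARHGAP21 (r = 0.9997), ZNF485 (r = 0.9996), FST (r = 0.9994) and LINC01348 (r = 0.9993). FST, the activin antagonist follistatin, differed by 1.69. The arrays form 2 separate groups, so r mostly reads the difference between them and the low value of shCtrl replicate 2.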

How the data were processed

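The 6 arrays carried Cy3-labelled CAL-27 cDNA, 3 shCtrl and 3 shXBP-1s, each sample in its labelled group. Per the file headers, the deposited scanner files are Agilent Feature Extraction 11.0.1.1 output of a whole human genome design, although the labelling protocol describes a NimbleGen kit. The authors deposited a background-subtracted processed intensity for each spot and a log2 value, and the submitters' processing notes name RMA without saying to which values it was applied.

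Processed intensities were log2-transformed and the 75th percentile over non-control spots was subtracted on each array. Spots flagged as outliers were dropped, and spots of a probe were averaged. Probes that were well above background (over 50% of their spots) on each of the 3 arrays in either group were fitted with limma 3.58.1 (R 4.3.3, lmFit and eBayes with trend, 2-sided), adjusted by Benjamini-Hochberg over 27624 probes, after the fit had been checked on simulated data. With 3 against 3 arrays an exact permutation p cannot go below 0.1, so none is given, and precision is limited by how few arrays there are. Of 34127 probes, 25771 were named through their RefSeq accession, and 19 were left out because all spots were flagged on an array. The brightest tested probe stands for a gene in counts. SERPINB3 and SERPINB4 share sequence and are uncertain.

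The members and gene lists were chosen with earlier results of these data known. All members and XBP1 were named, with up to 4 called genes per list by smallest p, every gene of lists of 5 or fewer, and the 5 genes most correlated with SERPINB2. Some genes under this rule are not reported here, and the list counts leave them out. Alternatives were normexp background correction (offset 50) alone or followed by quantile normalization, quantile normalization of the processed intensities, the log2 values as deposited, stricter or absent filters for dim probes, a fit without the intensity trend, the t-test of the methods, dropping the fold requirement, blocks for replicate number or slide, averaging all probes of each gene, and omission of each array. Promoter letters came from a RefSeq table of GRCh38.p14 and were searched on both strands. Gene order came from RefSeq of the same build, while array coordinates were not used here. Protein sequences were not used here.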

Additional observations from a re-analysis of the deposited data

How the results depend on the processing

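Normexp background correction left 473 probes called over the array, or 363 with quantile normalization added, and moved the SERPINB2 difference to 3.96 or 4.22. SERPINB8 turned to -0.154 with normexp alone and was 0.434 with quantile normalization added (limma adjusted p = 9.42e-05). The adjusted p-values of normexp alone were extreme, such as 1.08e-125 for XBP1, and many genes shared the value 0.451, so they are weak evidence. Without a minimum fold, 11516 probes and 4 neighbours (SERPINB5, SERPINB7, SERPINB8 and SERPINB13) passed, and without the filter on dim probes 2 neighbours (SERPINB7 and SERPINB10). With slide as a block SERPINB2 was at 4.74. Leaving out each array in turn gave 1275 to 1750 called probes, 1 to 2 called neighbours, and differences of 4.88 to 5.25 for SERPINB2 and 0.972 to 1.01 for SERPINB8, which was called without shCtrl replicate 1. The causes were not tested. SERPINB5, SERPINB7 and SERPINB13 kept the sign of their difference and a p below 0.05 in all 17 alternatives that gave them a value, adjusted except in the unadjusted t-test of the methods. SERPINB3, SERPINB4 and SERPINB11 stayed below 0, but with normexp alone SERPINB3, SERPINB4 and SERPINB13 lay 0.29, 0.39 and 0.12 above the median of all probes. With quantile normalization added, SERPINB3, SERPINB4 and SERPINB13 were at -0.17, -0.06 and -0.29, below the median of -0.003. The replicate numbers did not pair the samples, since the deviations of same-numbered arrays correlated at -0.016, 0.117 and -0.116. With the replicate number as a block 1381 probes and 1 neighbour were called, and no call of a member changed. Matching members by the files' own gene name column was not run, because none was found in them. Signal over background limits SERPINB10, SERPINB11 and SERPINB12.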
